A study of Mus musculus with 3 samples.

Results

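The 10 genes described here belong to the *Bcl2* family, which controls whether a cell dies through its mitochondria. They were chosen by name from the 19927 gene symbols of 3 single-cell RNA sequencing (scRNA-seq) libraries of mouse dorsal skin. The choice was made with earlier results of these data known. They comprise 3 anti-apoptotic genes (*Bcl2*, *Bcl2l1* and *Mcl1*), 2 effector genes (*Bax* and *Bak1*) and 5 BH3-only genes (*Bid*, *Bad*, *Bbc3*, *Pmaip1* and *Bcl2l11*). All 10 were listed in control 2 and in the single library labelled *Vdr* cKO, while control 1 listed 9 and lacked *Pmaip1*. The study asked how the vitamin D receptor gene *Vdr* acts on the regression of hair follicles, a phase called catagen, in which follicle cells are removed by apoptosis.

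Both genotypes carried floxed alleles (*Vdr* flox/flox) and were sampled at postnatal day 18 (P18). The 2 control libraries came from *Vdr* flox/flox mice without Cre and the single *Vdr* cKO library from *Vdr* flox/flox; Krt14cre mice, and each library pooled the skin of 3 male mice. Cre is driven by the promoter of keratin 14, so deletion is directed to basal keratinocytes and to the epidermal and follicle cells derived from them. There was no control that carried Cre without the floxed alleles. With 1 *Vdr* cKO library no test between genotypes was possible, and the difference between the 2 controls is the only spread between libraries that can be given.

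In healthy cells the anti-apoptotic proteins Bcl2, Bcl-xL (from *Bcl2l1*) and Mcl1 sit on the outer mitochondrial membrane and hold back the effectors Bax and Bak1. BH3-only proteins respond to stress, loss of growth signals or DNA damage, and they either block the anti-apoptotic proteins or activate the effectors directly. Active Bax and Bak1 form pores that release cytochrome c, which starts the caspase cascade. In skin, the lower part of the hair follicle is removed by apoptosis in catagen. Many switches of the mitochondrial route act on proteins, which counts of RNA do not show.

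The proteins bind each other through the BH3 helix, a short stretch with a conserved leucine and, further on, a conserved aspartate. The coding bases of this stretch are shown for 2 members of each role, because this is the part by which the 3 roles recognise each other. It was found as leucine, any 3 residues, then glycine, alanine or serine, then aspartate, then aspartate, glutamate or glycine, and is printed with 4 codons on each side, 45 bases in all, with the leucine and aspartate codons in capitals.
*Bcl2*: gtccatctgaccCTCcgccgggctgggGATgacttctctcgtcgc
*Mcl1*: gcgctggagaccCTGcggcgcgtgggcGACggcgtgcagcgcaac
*Bax*: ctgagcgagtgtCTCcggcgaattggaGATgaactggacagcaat
*Bak1*: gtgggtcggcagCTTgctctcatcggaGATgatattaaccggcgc
*Bad*: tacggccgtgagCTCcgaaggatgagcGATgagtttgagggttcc
*Bcl2l11*: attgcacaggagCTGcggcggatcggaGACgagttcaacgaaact
The stretches are coding exon sequence of GRCm38 as annotated in GENCODE M21. They lie at chr1:106712569-106712613 (*Bcl2*, minus strand, exon 1 of 2), chr3:95659424-95659468 (*Mcl1*, plus strand, exon 1 of 3), chr7:45465991-45466035 (*Bax*, minus strand, exon 3 of 6), chr17:27022525-27022569 (*Bak1*, minus strand, exon 4 of 6), chr19:6950780-6950824 (*Bad*, plus strand, exon 3 of 4) and chr2:128147138-128147182 (*Bcl2l11*, plus strand, exon 3 of 4). A match was present exactly once in 9 of the 10 members and not in *Pmaip1* with these letters. The same pattern occurred in 8.63% of 21877 coding genes, so a match alone does not mark a BH3 helix.

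The libraries held 1480, 1658 and 2622 cells (control 1, control 2 and *Vdr* cKO, the order used for all values given in threes), with 18802408, 28690129 and 30954897 counts in all. A cell had a median of 4190, 4492.5 and 4055 counts but of 377, 502 and 688.5 detected genes, so at like depth the library labelled *Vdr* cKO held more genes with fewer counts each. Between 60 and 85 of a library's barcodes, and 20 to 28 of its cells, had a barcode that also occurred in another library. *Vdr* itself had 40.7, 35.9 and 80.8 CPM (counts scaled to a library total of 1e6) and was not lower in the library labelled *Vdr* cKO. The deletion removes exon 3 and the counts are not resolved along the gene, so they do not check it. The makeup of the libraries differed too. Summed over the lists of marker genes, basal keratinocyte markers stood at 1766, 1279 and 5029 CPM, spinous markers at 67499, 77386 and 51483 CPM, and inner root sheath markers, which belong to the hair follicle, at 0.585, 2.54 and 230.0 CPM. Of the basal markers 3 of 5 tested, and of the bulge markers 2 of 2 tested, were over 2-fold above both controls, while fibroblast markers (at most 8.62 CPM in sum) and endothelial markers (at most 4.15 CPM) were near 0. In a pooled level a different mix of cells and a different level within cells cannot be told apart, and the part of this makeup in the values below was not tested.

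The anti-apoptotic genes were higher in the library labelled *Vdr* cKO than in both controls. *Mcl1*, a short-lived protein that many epithelial cells need, stood at 105, 90.0 and 128 CPM, with exact 95% Poisson intervals of 100.1 to 109, 86.6 to 93.6 and 124 to 132 CPM. Its log2 fold over the control mean, computed like all folds here with 1 CPM added, was 0.39, against 0.22 for control 1 over control 2. *Bcl2l1*, which encodes the long-lived survival protein Bcl-xL, had 23.6 CPM (21.5 to 25.9), 40.2 CPM (37.9 to 42.6) and 56.2 CPM (53.6 to 58.9). The log2 fold of 0.80 was close in size to the difference between the controls (-0.74), so for this gene the spread between control libraries was about as large as the difference between genotypes. *Bcl2*, the founding member of the family, had 7.55 CPM (6.36 to 8.90), 8.19 CPM (7.18 to 9.31) and 18.3 CPM (16.9 to 19.9). The controls lay close together (log2 difference -0.10), and the *Vdr* cKO library was above both with a log2 fold of 1.13. Summed, the anti-apoptotic genes reached 136, 138 and 202 CPM. CPM are not divided by gene length, so levels are compared between libraries and not between genes. The intervals cover counting error only and are too narrow where a molecule was counted more than once.

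**Figure D1:**
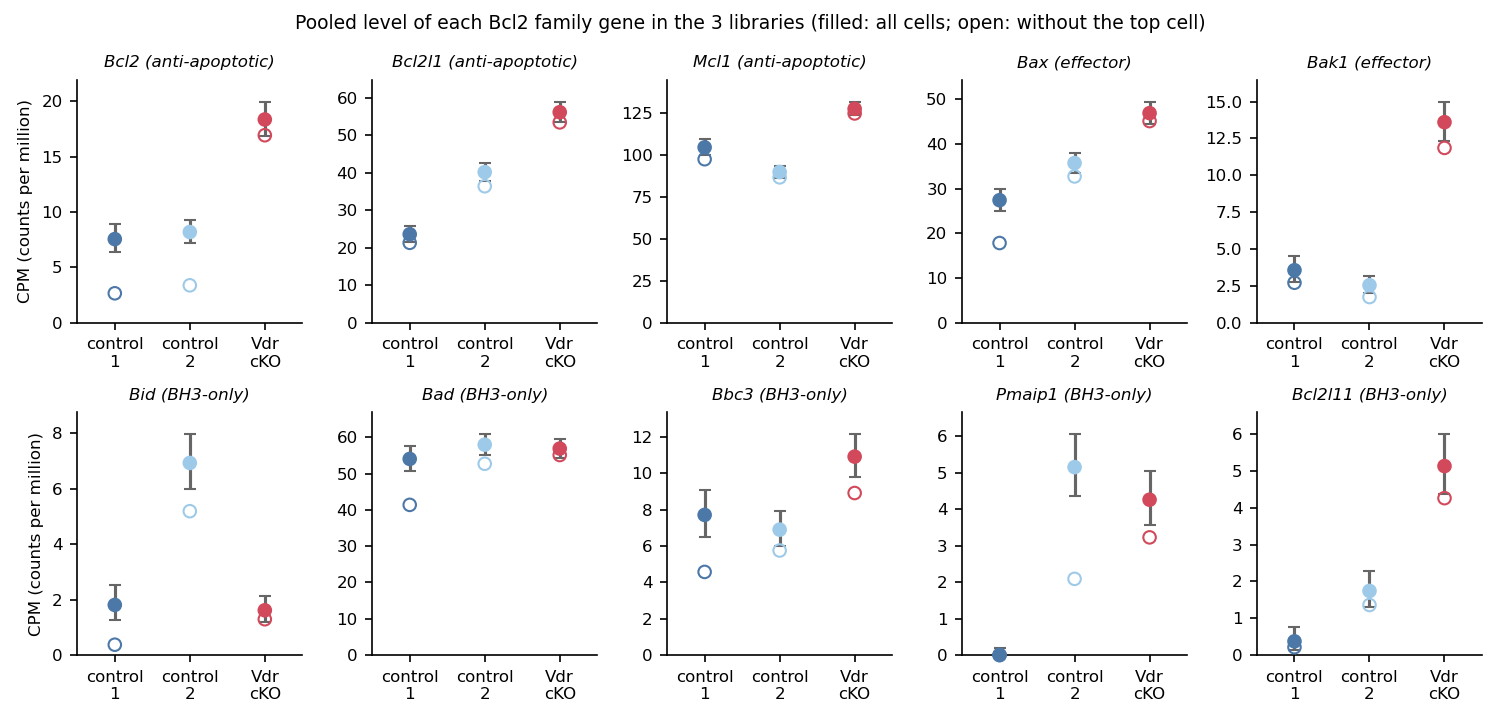
Pooled level in CPM (vertical axes, each starting at 0) of the 10 genes in the 2 controls and the library labelled *Vdr* cKO; filled points are all cells with exact 95% Poisson intervals, and open points leave out the cell with the most counts of that gene. *Bcl2* and *Bak1* stood apart from both controls, *Bad* was level in the 3 libraries, and the open points fall far below the filled ones for *Bcl2* in both controls.

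The effectors, whose pores commit a cell to death, were also higher in the *Vdr* cKO library. *Bax*, which moves from the cytosol to the mitochondria when activated, had 27.4 CPM (25.1 to 29.9), 35.7 CPM (33.5 to 37.9) and 46.8 CPM (44.5 to 49.3), a log2 fold of 0.56 against -0.37 between the controls. *Bak1*, which resides on the mitochondrial membrane, had 3.56 CPM (2.76 to 4.53), 2.54 CPM (1.99 to 3.20) and 13.6 CPM (12.3 to 14.96), the highest log2 fold among the 10 genes at 1.85. With each gene counted once per cell, the *Bak1* fold was smaller, at a log2 value of 0.63. In control barcodes that did not pass the limits for a cell, *Bak1* was higher than in cells, at 27.2 and 96.1 CPM (31 and 53 counts). No count was found in those of the *Vdr* cKO library, which held 126039 counts in all against 1141347 and 551524, so this 0 says little. In those of control 2, *Bad* (92.5 CPM), *Bcl2l1* (59.8) and *Bax* (54.4) were also higher than in cells, while *Mcl1* (58.0), *Bcl2*, *Bid* and *Bbc3* were lower. In control 1 *Bcl2l1* was higher than in cells too (30.7 CPM, 35 counts), while *Bad* and *Bax* were lower. With all deposited barcodes the *Bak1* log2 fold was 1.37. Summed, the effectors had 30.95, 38.2 and 60.4 CPM.

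Among the BH3-only genes no common direction was seen. *Bad*, a sensor of growth factor signals, was level at 54.0 CPM (50.8 to 57.5), 58.0 CPM (55.2 to 60.8) and 56.9 CPM (54.3 to 59.6). The *Bad* log2 fold was 0.02, and scaling by edgeR's TMM factors or DESeq2's size factors turned it to -0.16 and -0.19. *Bbc3*, which encodes the p53 target Puma, had 7.71 CPM (6.51 to 9.07), 6.90 CPM (5.97 to 7.93) and 10.9 CPM (9.79 to 12.1), a log2 fold of 0.52. *Bcl2l11*, which encodes Bim, had 0.372 CPM (0.150 to 0.767), 1.74 CPM (1.29 to 2.30) and 5.14 CPM (4.37 to 6.0), from 7, 50 and 159 counts. The *Vdr* cKO library was highest for both genes, although the controls differed from each other by a log2 value of -0.999 for *Bcl2l11*. *Bid*, which links death receptors to the mitochondria once cut by caspase-8, had 1.81 CPM (1.25 to 2.53), 6.94 CPM (6.01 to 7.97) and 1.62 CPM (1.20 to 2.13). It was the only member below both controls, but the *Vdr* cKO value was within the interval of control 1. *Pmaip1*, which encodes the p53 target Noxa, was not listed in control 1, where 3 counts would be 0.160 CPM, and reached 5.16 CPM (4.36 to 6.06) in the second control, beside 4.26 CPM (3.57 to 5.06) for *Vdr* cKO. The gap between the controls exceeded that between control 2 and the *Vdr* cKO library. The 5 BH3-only genes summed to 63.9, 78.7 and 78.8 CPM.

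Members were also set against all other genes. A gene was called when its level for *Vdr* cKO was more than 2 times, or less than 0.5 times, that in each control, after adding 1 CPM. Of the 3 members with at least 50 CPM in a library (*Bcl2l1*, *Mcl1* and *Bad*), 0 were called, against 3.88% of 3919 genes called higher and 1.15% called lower. At a limit of 10 CPM, 7 members entered and 2 were called higher (*Bcl2* and *Bak1*) and 0 lower, against 7.97% and 1.44% of 8806 genes. By position alone, 7 of the 10 members (*Bcl2*, *Bcl2l1*, *Mcl1*, *Bax*, *Bak1*, *Bbc3* and *Bcl2l11*) had a higher CPM than in both controls, where 48.8% of all genes with a count did. Counted once per cell, 8 of 10 were above both controls, against 48.6%. The members' median log2 fold was 0.56 (lowest -1.04, highest 1.85), beside 0.00 for all genes with at least 50 CPM, 0.14 with at least 10 CPM and 0.10 with any count. The 10 genes were thus above the middle of all genes as a list, while the differences of most single members were under 2-fold.

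**Figure D2:**
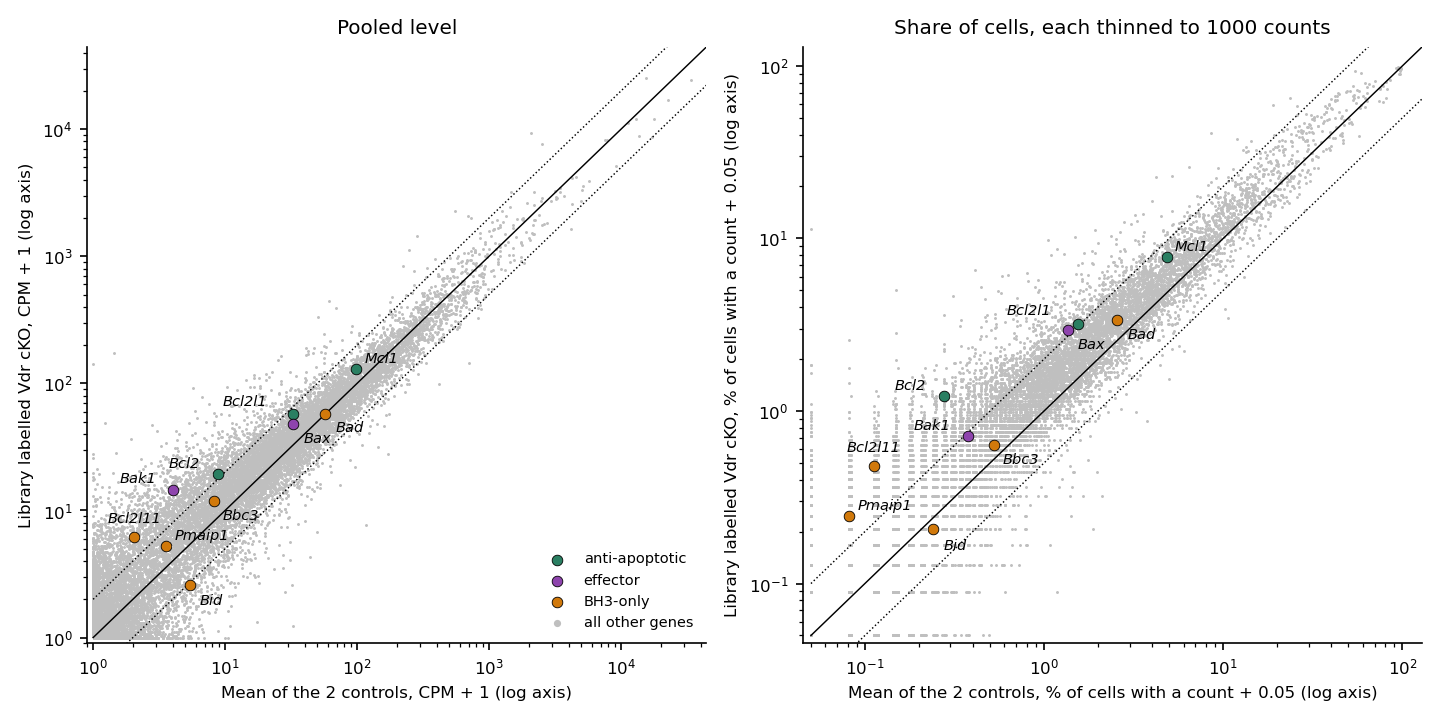
Each gene's value in the library labelled *Vdr* cKO (vertical) against the mean of the 2 controls (horizontal), as CPM + 1 (left) and as the percentage of cells with a count + 0.05 after each cell was thinned to 1000 counts (right); all axes are logarithmic, the solid line marks equality and the dotted lines a 2-fold difference. On the right the grey points of all other genes lie above the line of equality too, with a median ratio of 1.39 for genes with at least 10 CPM, and the members' median ratio was 2.08.

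Few cells had a count of any member. Over the deposited depths, 80.5%, 71.0% and 59.8% of cells had no count of any of the 10 genes, and no cell had more than 4, 7 and 9 of them. To compare shares at one depth, 1000 counts were drawn at random from every cell that had them, or 1466, 1597 and 2562 cells. At least 1 anti-apoptotic gene was then found in 5.73%, 7.14% and 11.6% of cells, an effector in 1.57%, 1.69% and 3.51%, and a BH3-only gene in 2.73%, 3.76% and 4.68%. Any member was found in 9.89% (exact 95% binomial interval 8.41 to 11.5), 11.7% (10.2 to 13.4) and 18.7% (17.2 to 20.3). In each role the share was highest in the *Vdr* cKO library, where thinned shares of genes in general were higher too, with a median ratio of 1.39 to the control mean over genes with at least 10 CPM. Thinning equalises counts and not detected genes, which also differed between libraries, so 200 detected genes were drawn from each cell as well. Any member was then found in 8.65% (7.27 to 10.2), 8.44% (7.15 to 9.89) and 11.3% (10.1 to 12.5) of cells. The interval of the *Vdr* cKO library overlapped that of control 1 but not that of control 2. Under this draw the median ratio to the control mean was 1.09 over genes with at least 10 CPM. An anti-apoptotic gene was found in 5.54%, 4.76% and 6.90%, an effector in 1.89%, 1.21% and 1.87%, and a BH3-only gene in 1.42%, 2.77% and 2.86%.

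Gene by gene, thinned shares were above both controls for 8 of 10 members, all but *Bid* and *Bbc3*, where 62.9% of all genes were. The share of all genes depended on their level. Set against the control mean, the thinned share was higher for 7096 of 8791 genes with at least 10 CPM and for 9 of 10 members. These counts therefore do not set the members apart. *Mcl1* was found in 4.43% (3.44 to 5.62), 5.13% (4.10 to 6.33) and 7.73% (6.72 to 8.83) of thinned cells, or 9.66%, 15.1% and 21.01% without thinning. *Bcl2* was found in 0.205% (0.0422 to 0.597), 0.250% (0.0683 to 0.640) and 1.17% (0.791 to 1.67), or 0.743%, 0.724% and 2.67% without thinning. *Bax* was found in 1.23% (0.729 to 1.93), 1.38% (0.865 to 2.08) and 2.89% (2.27 to 3.61), or 2.97%, 4.83% and 8.43% without thinning. For these genes the interval of the *Vdr* cKO library lay above both control intervals, 3 of 10 members against 8.01% of all genes found in a thinned cell, and 3 of the 7 members with at least 10 CPM against 14.7% of such genes. For *Bcl2l1* (1.16%, 1.82% and 3.16%), *Bak1* (0.341%, 0.313% and 0.664%) and *Bad* (2.46%, 2.57% and 3.32%) it overlapped that of at least 1 control. These intervals are given for 1 depth and 1 set of limits for a cell. In cells with 300 to 4000 detected genes and under 5% mitochondrial counts, thinned shares of *Mcl1* were 4.96%, 6.61% and 7.04%. Those of *Bax* were then 1.87%, 1.44% and 2.72%, and those of *Bcl2* 0.220%, 0% and 1.03%. With 200 drawn genes the differences were smaller: *Mcl1* was found in 3.72%, 3.38% and 4.20% of cells, *Bcl2l1* in 1.55%, 1.33% and 2.36%, *Bax* in 1.42%, 0.844% and 1.49%, and *Bcl2* in 0.338%, 0.0603% and 0.381%. Under this draw 7 of 10 members were above both controls, against 45.4% of all genes, and *Bak1* (0.473%, 0.362% and 0.381%) was not. Free RNA in the droplets also gives counts in cells that do not express a gene, and as these 10 genes are used by most cell types, no cell type lacked them and could serve as a blank.

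The low genes rested on few cells, and most of all in the controls. *Bcl2* was counted in 11, 12 and 70 cells, and a single cell held 64.8% and 58.7% of all *Bcl2* counts in the controls but 7.75% in the *Vdr* cKO library. Without that cell in each library, *Bcl2* had 2.66, 3.38 and 16.9 CPM, and its log2 fold went from 1.13 to 2.16. For *Bid* in control 1 the top cell held 79.4% of the counts, and for *Pmaip1* in control 2 it held 59.5%. *Bax* in control 1 was set to 35.0% by 1 of 44 cells, without which it had 17.8 CPM. *Mcl1* was counted in 143, 251 and 551 cells, with 6.75%, 3.56% and 2.15% of its counts in the top cell. The median over the members of the log2 fold without the top cell was 0.84, beside 0.08 for all genes with at least 50 CPM and 0.28 with at least 10 CPM.

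**Figure D3:**
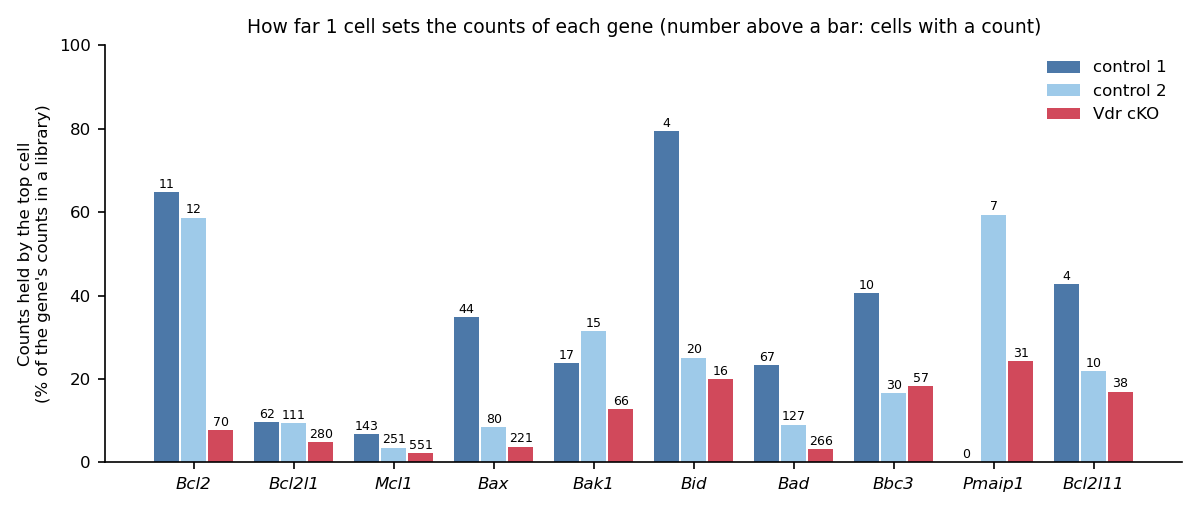
Percentage of a gene's counts in a library that came from the single cell with the most of them (vertical axis, 0 to 100%), for the 10 genes in the 3 libraries; the number above a bar is the number of cells with a count. Bars were taller in control 1 than in the *Vdr* cKO library for the 9 genes listed in control 1.

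Cells of each library were put into a low, a middle and a high bin by genes that mark keratinocyte layers. These were *Krt14* (basal), *Krt10* (spinous) and *Lor* (loricrin, granular), used 1 at a time, and a bin is not a layer. The low bin held all cells with no count of the gene and, where these were fewer, was filled up with the lowest cells to the size of 1 in 3 cells. The levels in a bin are pooled CPM, and the bins also differed in depth. By *Krt14*, the low bin held 884, 1001 and 874 cells, and in the controls these were exactly the cells without a *Krt14* count. The *Krt14*-high cells still had 15289, 21588 and 15694 CPM of *Krt10*, against 38636, 35333 and 31950 CPM in *Krt14*-low cells. Their *Lor* was 8620, 13072 and 8439 CPM, against 16173, 13435 and 14769 CPM, so high against low is not basal against suprabasal. *Bcl2l11* was higher in *Krt14*-high than *Krt14*-low cells in all 3 libraries, with 0.367 and 1.12 CPM in control 1, 0.984 and 7.20 CPM in control 2, and 1.32 and 10.1 CPM in the *Vdr* cKO library. In the *Vdr* cKO library these counts came from 7 low, 11 middle and 20 high cells, and in the controls from 2 and 4 high cells. That was 1 of 10 members, where 12.1% of all genes with a count had this direction in all 3 libraries. Of the 3 members with at least 50 CPM, 0 were higher, against 22.7% of such genes. Control 1 had 7 counts of *Bcl2l11* in all. Its direction there turned with bins from thinned cells and with 2 bins, at 0.399 and 0.341 CPM in low and high cells. No order of *Bcl2l11* by *Krt14* is read for all 3 libraries. *Bad* and *Bid* were lower in *Krt14*-high cells in all 3 libraries, 2 of 10 members against 10.2% of genes with a count. *Bad* was 1 of the 3 members with at least 50 CPM, where 23.5% of such genes were lower, and had 69.6 and 61.8 CPM in low and high cells of control 1, 64.8 and 50.6 CPM in control 2, and 72.9 and 57.7 CPM in the *Vdr* cKO library. This direction of *Bad* was lost with CPM averaged over cells, at 39.2 and 86.9 CPM in control 1 and 57.8 and 72.3 CPM in the *Vdr* cKO library, and its thinned share in control 2 went from 2.29% to 3.58%, so no order is read. *Pmaip1* was found in the *Vdr* cKO library in 0 of 874 *Krt14*-low, 10 middle and 21 high cells, at 0.00, 1.72 and 10.9 CPM, and the 0 allows a share of up to 0.343% (3 cells). In control 2 it was found in 1, 2 and 4 cells of the same bins. The bins of the *Vdr* cKO library differed in detected genes, with medians of 579, 743 and 753. After thinning, 5 cells of that library had a count of *Pmaip1* in all. In control 2 the direction turned with bins from thinned cells and with 2 bins, at 6.38 and 4.03 CPM in low and high cells. No order of *Pmaip1* by *Krt14* is read.

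By *Krt10*, *Bad* and *Bak1* were higher in the high than in the low bin in all 3 libraries, 2 of 10 members against 11.8% of genes with a count, and *Bad* as 1 of 3 members with at least 50 CPM against 26.5%. *Bad* had 37.0 and 70.6 CPM in low and high cells of control 1, 47.9 and 62.3 CPM in control 2, and 43.4 and 64.0 CPM in the *Vdr* cKO library. The share of thinned cells with *Bad* went the other way in the controls, from 2.86% to 2.05% and from 3.21% to 1.33%, so no order is read from these bins. *Bcl2l11* was lower in *Krt10*-high cells in all 3 libraries, 1 of 10 members against 12.2%, and 0 of the 3 members with at least 50 CPM were lower, against 20.0%. *Bcl2* in the low, middle and high bins of the *Vdr* cKO library had 43.2, 18.5 and 9.01 CPM and was found in 1.64%, 0.939% and 0.933% of thinned cells. Its levels in the controls rested on at most 7 cells a bin.

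By *Lor*, 0 of 10 members were higher in the high bin in all 3 libraries, where 6.68% of genes with a count and 14.9% of genes with at least 50 CPM were. *Bax*, *Bak1* and *Bcl2l11* were lower in all 3, or 3 of 10 against 20.8%, and 0 of the 3 members with at least 50 CPM against 38.8%. *Bax* had 31.5 and 5.69 CPM in low and high cells of control 1, 43.5 and 19.1 CPM in control 2, and 50.4 and 36.1 CPM in the *Vdr* cKO library. Without the top cell of each bin it still had 14.9 and 4.60, 38.1 and 13.2, and 47.3 and 31.3 CPM. The thinned shares for *Bax* were 1.42% and 0.826%, 1.83% and 1.17%, and 3.45% and 2.84%, with overlapping intervals in each library. With CPM averaged over cells, which gives shallow cells the same weight as deep ones, the direction turned in all 3 libraries, to 19.2 and 20.7, 32.7 and 60.5, and 40.7 and 80.8 CPM, and counting once per cell turned it in control 1 (45.2 and 46.5) and the *Vdr* cKO library (80.5 and 87.0). Averaged over cells, *Bak1* also turned in control 2 (0.942 and 14.97 CPM) and the *Vdr* cKO library (19.5 and 26.2 CPM), so no order is read for either effector. *Lor*-low cells were deeper than *Lor*-high cells, with medians of 6345, 13110.5 and 6834.5 counts against 3761, 3299 and 3701.5. *Mcl1* in the *Vdr* cKO library was level over the bins, at 128, 125 and 129 CPM. *Bcl2l1* there was highest in *Lor*-high cells, at 48.3, 36.6 and 76.5 CPM and in 2.18%, 2.36% and 4.97% of thinned cells. The controls went opposite ways for *Bcl2l1*, with 26.8 and 15.6 CPM in low and high cells of control 1 and 20.9 and 61.5 CPM in control 2.

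**Figure D4:**
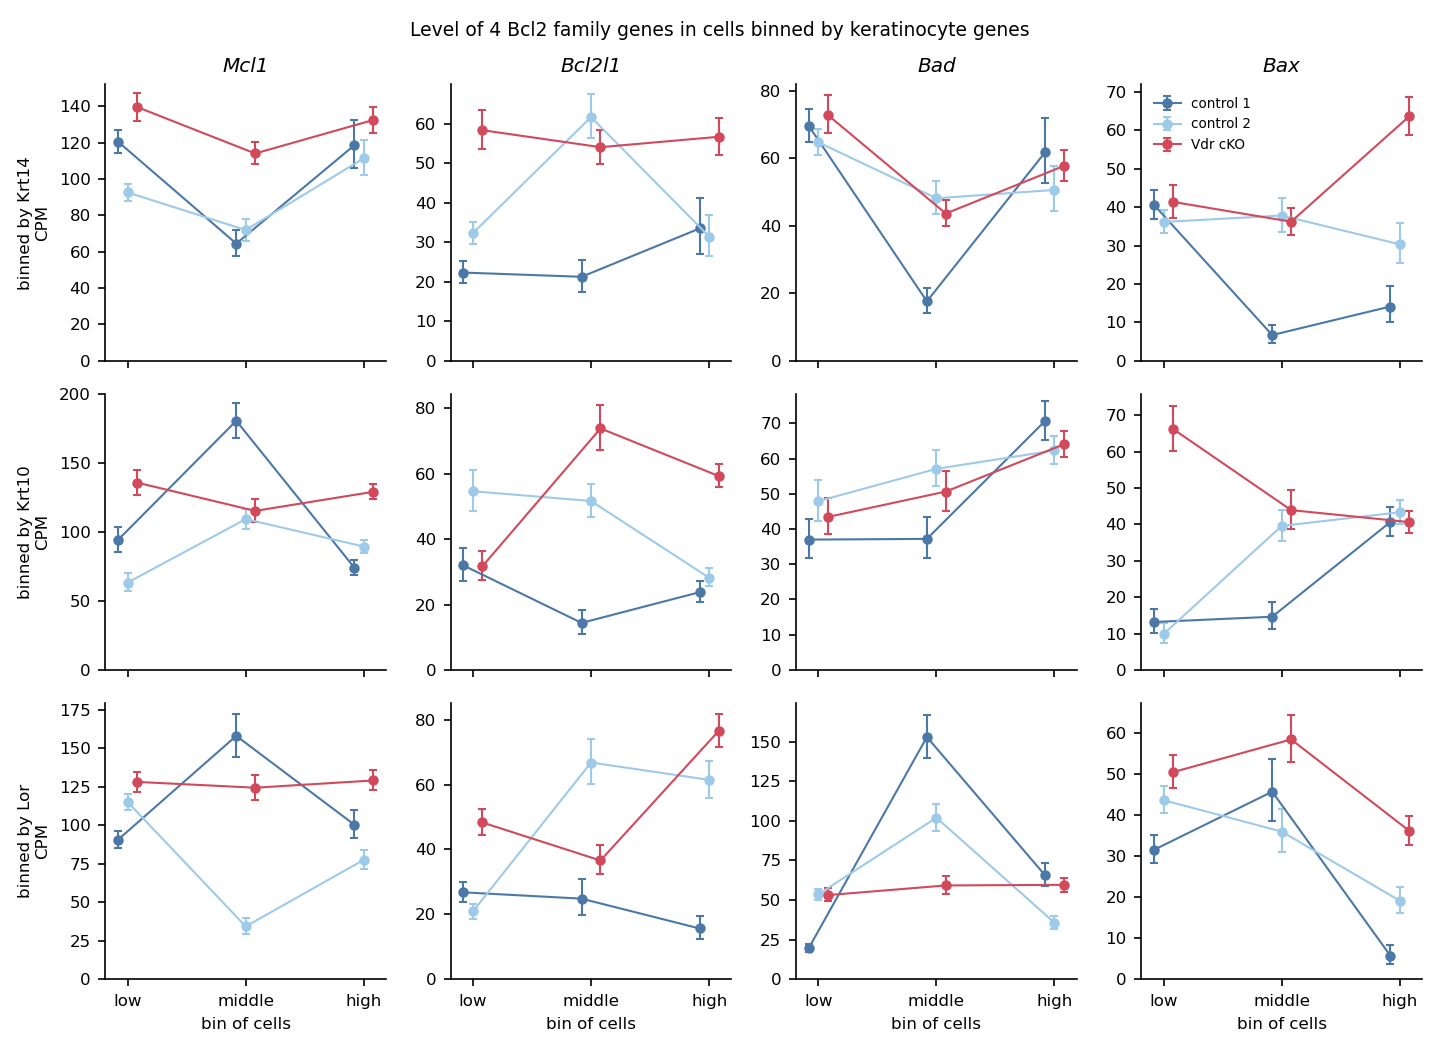
Pooled CPM (vertical axes, each starting at 0) of *Mcl1*, *Bcl2l1*, *Bad* and *Bax* in the low, middle and high bin of cells by *Krt14*, *Krt10* and *Lor* (rows) in the 3 libraries, with exact 95% Poisson intervals. By this pooled measure *Bax* was lower in *Lor*-high than in *Lor*-low cells in each library, which turned with CPM averaged over cells. By *Krt10* it was higher in the high than in the low bin of both controls and lower in that of the *Vdr* cKO library. The thinned share of *Bax* was level between the low and high *Krt10* bins of the *Vdr* cKO library.

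In 7 of the 30 pairs of a member and a binning gene, the high and low bins differed in one direction in both controls and in the other direction in the *Vdr* cKO library. Among all genes with a count, 14.0% did so by *Krt14*, 14.3% by *Krt10* and 12.1% by *Lor*, and among genes with at least 50 CPM 18.2%, 21.6% and 16.3%. *Bax* by *Krt10* was the pair with the most counts that did so under each of the 6 other ways of binning or pooling. It had 13.2, 14.6 and 40.6 CPM in the low, middle and high bins of control 1, 9.83, 39.6 and 43.3 CPM in control 2, and 66.2, 43.9 and 40.6 CPM in the *Vdr* cKO library. The *Krt10*-low bins held different cells in the 3 libraries: they had 26520, 35404 and 11433 CPM of *Lor* and 2243, 1595 and 3684 CPM of *Krt14*, and the bin ended at 21521, 18247 and 9081 CPM of *Krt10*. The part of this in the *Bax* levels was not tested. In thinned *Krt10*-low cells *Bax* was found in 0.612% (0.126 to 1.78), 0.377% (0.0457 to 1.36) and 2.93% (1.91 to 4.30), and in *Krt10*-high cells in 1.84%, 2.08% and 2.92%. The thinned share was thus level between these bins of the *Vdr* cKO library, and counted once per cell *Bax* had 89.6 and 85.6 there. No order of *Bax* by *Krt10* is read in that library. *Bax* had a count in 63 of the 874 *Krt10*-low cells of the *Vdr* cKO library, against 9 of 493 and 8 of 552 in the controls. The median of detected genes in these bins was 622.5, against 339 and 404 in the controls, so the numbers of cells are not compared.

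Cells were also put into 4 groups by these 3 genes together. Cells with *Lor* below the median whose *Krt14* exceeded their *Krt10* numbered 30, 59 and 209. In the *Vdr* cKO library these had 6221 CPM of *Krt14*, against 1446 to 1783 CPM in the other groups, and 2679 CPM of *Krt10*, against 22245 to 26952 CPM. They had 111 CPM of *Bax* (98.1 to 125), or 96.0 CPM without the top cell, against 45.3 CPM (41.8 to 49.0) in the *Krt10*-dominated cells below the *Lor* median and 38.3 CPM (34.5 to 42.4) in the *Lor*-high cells, the highest 25% by *Lor*. *Bax* was found in 5.34% (2.70 to 9.35) of them after thinning, against 2.95% (2.03 to 4.14) and 2.54% (1.46 to 4.10), so the shares overlapped. The level of 111 CPM came from 28 of the 209 cells, and its interval covers counting error only. No share of all genes is given for the 4 groups, so levels that differ between them are not read as particular to a member. In the control cells that met the same rule *Bax* was found in 0 of 30 and 2 of 59 cells, at 0.00 and 3.74 CPM, and the 0 allows a share of up to 10% (3 cells). They differed from those of the *Vdr* cKO library, as they had 1112 and 1177 CPM of *Krt5*, another basal keratin, against 5272 CPM, 627 and 631 CPM of *Krt10* against 2679 CPM, and medians of 14103.5 and 10750 counts against 5878. No comparison of *Bax* between the libraries is read from them. *Mcl1* was also highest in the *Krt14*-dominated cells of the *Vdr* cKO library, at 173 CPM (157 to 191) against 109 to 131 CPM in the other groups, but its thinned share (8.25%, 4.88 to 12.9) lay inside the range of the others (6.39% to 8.74%). *Bcl2l1* in the *Vdr* cKO library was highest in the *Lor*-high cells, at 75.4 CPM (70.1 to 81.0) and 4.93% (3.37 to 6.92) of thinned cells. It was lowest in the *Krt14*-dominated cells, at 29.7 CPM (23.3 to 37.3), although not by thinned share (2.91%, 1.08 to 6.23). In control 1 the *Lor*-high cells had the lowest *Bcl2l1* level of the 4 groups, at 12.1 CPM and 0.275% of thinned cells. In control 2 they had the highest level, at 70.4 CPM, so this order did not hold in both controls. The groups differed in depth: the *Krt14*-dominated cells of the *Vdr* cKO library had a median of 5878 counts and the *Lor*-high cells 3928.

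**Figure D5:**
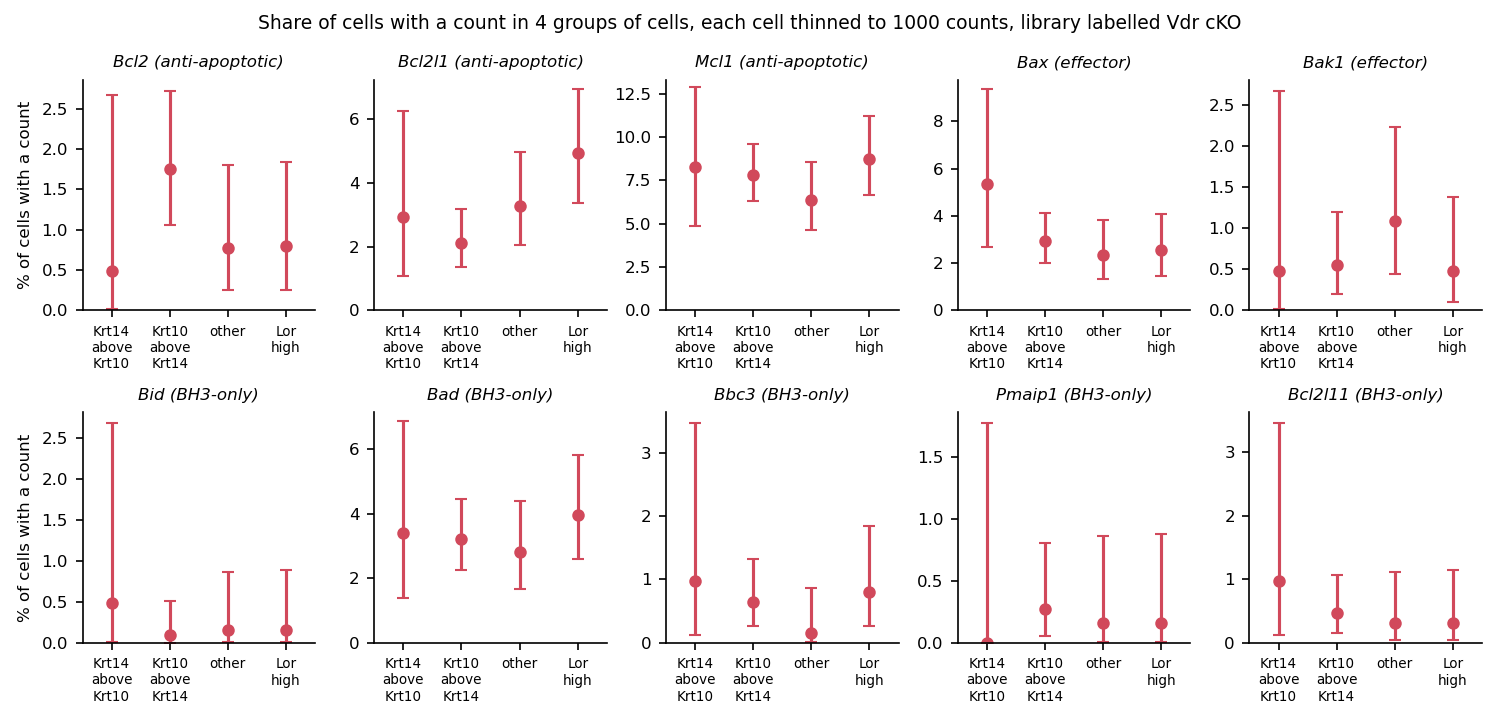
Percentage of cells with a count of each gene (vertical axes, each starting at 0) in 4 groups of cells of the library labelled *Vdr* cKO, each cell thinned to 1000 counts, with exact 95% binomial intervals; "other" are cells above the *Lor* median that are not in the *Lor*-high group. *Bcl2l1* was found most often in the *Lor*-high group and *Bax* in the group with *Krt14* above *Krt10*, with wide intervals throughout.

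The rest of the pathway was taken from 4 lists. Of 16 other *Bcl2* family genes 12 were listed, 7 reached 10 CPM, and of these 0 were over 2-fold from both controls. Among them *Bcl2l2*, which encodes the survival protein Bcl-w, had 10.1, 22.3 and 35.1 CPM, with controls a log2 value of -1.07 apart. Of 20 genes of the apoptosome and caspases, 15 had at least 10 CPM, and *Birc5* and *Endog* were among those over 2-fold above both controls. *Birc5*, which encodes survivin and is best known for its part in cell division, had 3.88, 1.43 and 15.8 CPM (log2 fold 2.20). *Endog*, a mitochondrial nuclease, had 2.23, 6.80 and 16.2 CPM (1.64). Cycling markers moved in the same direction as *Birc5*, with 2 of 3 over 2-fold above both controls and sums of 56.8, 51.8 and 195 CPM, and their part in its level was not tested. *Xiap*, which encodes an inhibitor of caspases, was below both controls at 93.1, 82.6 and 57.6 CPM (log2 fold -0.60). Of 13 genes of death receptor signalling 7 had at least 10 CPM, of 14 genes of the p53 response 12 did, and in both lists 0 were over 2-fold apart. *Cdkn1a*, the p21 gene and a p53 target, had 2300, 2053 and 1485 CPM, and *Trp53* had 40.0, 18.5 and 51.2 CPM. With at least 50 CPM, 5, 6, 1 and 8 genes of the 4 lists entered, and 0 were over 2-fold from both controls in either direction. Among all genes at that limit 3.88% were higher and 1.15% lower, and at 10 CPM 7.97% and 1.44%. A count of 0 among so few genes therefore says little. The median log2 folds of the lists were 0.49, 0.43, 0.52 and 0.59 in the order given, close to the 0.56 of the 10 members. For all genes the median was 0.10 with any count, 0.14 with at least 10 CPM and 0.00 with at least 50 CPM.

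Genes whose pooled level followed a member over the 12 points of 3 libraries and 4 groups of cells were looked up among 2748 genes for the 2 members counted in the most cells. *Mcl1*, counted in 945 cells, was most like *Atrx* (Pearson r = 0.86), *Arf3* (0.83) and *Rbm6* (0.83). *Bad*, counted in 460 cells, was most like *Naca* (0.85), *Atp6v0b* (0.83) and *Rwdd1* (0.81). These are descriptions over points that share libraries and depth.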

How the data were processed

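scRNA-seq was done by the authors on cells scraped from trypsin-treated dorsal skin, with droplet capture on a Nadia instrument. Deposited were counts of each gene in each cell barcode, 1 matrix for each library, without normalization, and gene symbols and barcodes in separate lists. Per the labels the build was mm10. The paper names Seurat for the alignment, and a rule for collapsing copies of a molecule is not given in the sources used here. A mean of 22.8, 21.2 and 11.8 counts per entry above 0 was found, so the counts can include copies made by PCR, and the libraries differ in this.

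Barcodes with 200 or more detected genes and no more than 20% mitochondrial counts were taken as cells, 5760 in all. Doublets were not called. The counts of a library were pooled over its cells and given as CPM, with exact 95% Poisson intervals, and shares of cells with exact 95% binomial (Clopper-Pearson) intervals. Folds are log2 of *Vdr* cKO over the control mean with 1 CPM added to each. A value of 0 is given with the limit of 3 counts or cells. For shares, cells were thinned to 1000 counts, and shallower cells were left out. No p-value was computed, since a single *Vdr* cKO library was made and cells do not stand in for replicates. The members, the marker lists and the pathway lists were chosen with earlier results of these data known. Beside keratin and loricrin markers, the genes named are the 10 members and *Vdr*. From the 4 pathway lists, genes over 2-fold from both controls are named with up to 4 others. Also named are the 3 genes most like each of the 2 members found in the most cells. *Bcl2l2*, *Xiap*, *Cdkn1a* and *Trp53*, not over 2-fold apart, were picked after their values were seen. One result of the pathway lists is not reported here.

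The call rule was tested on simulated data, where 105 of 105 genes changed 4-fold, 0 of 95 changed 1.5-fold and 0 of 3110 unchanged genes were called. A rule that asks for more than 2-fold gives this nearly by its definition. The simulation does not give the rate of false calls in these libraries, where the controls differed by a log2 value of -1.50 for *Bid*. Scripts ran in Python 3.11.15 with pandas 2.3.3, scipy 1.17.1, numpy 2.4.6 and, for plots, matplotlib 3.10.9. Scaling alternatives used edgeR 4.0.16 and DESeq2 1.42.0 in R 4.3.3. Other alternatives were limits for cells, barcodes shared between libraries left out, abundant genes left out of the total, CPM averaged over cells, each gene counted once per cell, 10 CPM added, other limits and folds, other depths of thinning, other bins, and each control left out. The fold without the top cell and the draw of 200 genes were chosen after seeing the data.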

Additional observations from a re-analysis of the deposited data

Results flagged for a closer look

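In 7 pairs of a gene and a binning gene both controls went one way and the library labelled *Vdr* cKO the other. The difference was not tested, as there is 1 such library, and the share of all genes that did so was 12.1% to 21.6% depending on the bins and the level. Values are log2 of the CPM in the high over the low bin with 1 CPM added, for control 1, control 2 and *Vdr* cKO. By *Krt14*, *Bcl2* had -0.55, -3.34 and 2.07, and *Bax* had -1.46, -0.25 and 0.61, and each kept these directions in 3 of 6 other ways of binning or pooling. By *Krt10*, *Bcl2* had 1.47, 1.68 and -2.14 (kept in 5 of 6), *Bcl2l1* had -0.41, -0.93 and 0.88 (kept in 4 of 6), *Bax* had 1.56, 2.03 and -0.69 (kept in 6 of 6) and *Bid* had 1.85, 1.24 and -0.76 (kept in 6 of 6). The thinned share of *Bax* was level between the low and high *Krt10* bins of the *Vdr* cKO library, so no order is read there. By *Lor*, *Bbc3* had -2.51, -1.38 and 1.05 (kept in 6 of 6). *Bcl2* and *Bid* had at most 8 and 11 cells with a count in any of these control bins, and *Bbc3* was found in 6 and 1 cells of the low and high *Lor* bins of control 1.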

How the results depend on the processing

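No paired analysis was made, as the labels give no pairing between control and *Vdr* cKO libraries, and no result comes from a test. Over 12 alternatives the log2 fold kept its sign for 8 of the 10 members, all but *Bad* and *Pmaip1*. It ranged from 0.67 to 2.16 for *Bcl2*, 0.44 to 1.22 for *Bcl2l1*, 0.18 to 0.51 for *Mcl1*, 0.35 to 0.84 for *Bax*, 0.63 to 2.04 for *Bak1*, 0.08 to 0.69 for *Bbc3*, 0.45 to 2.16 for *Bcl2l11* and -1.60 to -0.10 for *Bid*, and that of *Bad*, near 0, from -0.19 to 0.22. *Pmaip1* was at -0.23 without control replicate 1, and no fold is given without control replicate 2, since control 1 had no count of it. TMM and DESeq2 scaling moved the median of all genes with at least 50 CPM by -0.18 and -0.21.

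The members' median log2 fold of 0.56 was 0.49 to 0.97 with a control left out and 0.84 without the top cell, an alternative chosen after seeing the data. It was lower with TMM factors (0.39), DESeq2 factors (0.37) and 10 CPM added (0.41), and higher with CPM averaged over cells (0.75). The count of members over 2-fold from both controls, 0, was 2 with a limit of 10 CPM, 3 with no limit, and 0 to 1 with a control left out (*Bcl2l1* without control 2). At 10 CPM 7.97% of 8806 genes were called higher and 1.44% lower. For the other counts under alternatives in this paragraph no share of all genes is given. They therefore do not set the members apart from genes in general. Members higher in *Krt14*-high cells in all libraries, 1, numbered 0 with bins from thinned cells, 0 with 2 bins, 3 with each gene counted once per cell, and 1 to 3 with a control left out. For *Krt10*, 2 became 1 with 2 bins and 0 with CPM averaged over cells. For *Lor*, 0 became 1 with CPM averaged over cells, 1 with each gene counted once per cell, and 2 with either control left out. Counts of members lower in the high bin were followed after seeing the data. For *Krt14*, 2 became 1 with bins from thinned cells, 0 with CPM averaged over cells, 0 with each gene counted once per cell, and 3 to 4 with a control left out. For *Krt10*, 1 became 1 to 2 with a control left out. For *Lor*, 3 became 1 with CPM averaged over cells, 1 with each gene counted once per cell, and 3 to 4 with a control left out. With a control left out, fewer libraries have to share a direction, so these bin counts can only stay or rise by definition. The cause of the other moves was not tested. The number of members with a thinned share above both controls stayed within 6 to 9. Depth limits *Bcl2*, *Bak1*, *Bid*, *Pmaip1* and *Bcl2l11*, each with 20 or fewer cells in each control.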
